A study of Mus musculus with 6 samples.

Results

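The SLAM and CD2 family receptors and the adaptor SAP were followed in splenic CD4+ T cell libraries. The donors were wild type C57BL/6J mice whose drinking water held dextran sulfate sodium (DSS), a compound that injures the colon lining and causes colitis. The 8 genes were taken by symbol from the deposited tables: Slamf1, Slamf6, Slamf7, Ly9, Cd84, Cd48, Cd2 and Sh2d1a, the last of which encodes SAP. Each symbol had 1 row among the 54532 genes listed, and all 8 genes passed the filter on low counts, as did 15138 genes in all. The 3 Akkermansia libraries came from mice given Akkermansia muciniphila, a mucin-degrading gut bacterium, every day, and the 3 PBS libraries from mice given phosphate-buffered saline (PBS). Both groups received DSS, and no group without colitis was used here. The labels give no age or sex of the mice, no method of cell isolation, and not whether a library holds 1 mouse. The study describes the libraries as biological replicates. The comparison addresses how giving the bacterium changes transcripts of splenic CD4+ T cells during colitis.

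SLAM family receptors are immunoglobulin-like proteins on blood cells, and most of them bind the same receptor on a neighbouring cell. CD48 differs from these: it is a lipid-anchored ligand of CD244 and, in mice, of CD2, an adhesion and costimulatory receptor of T cells. SAP is a small adaptor that binds the tails of SLAM receptors and brings in the kinase Fyn. In mice, SAP in CD4+ T cells is needed for lasting contacts with B cells and for follicular helper cells. The development of natural killer T (NKT) cells in mice also needs SAP.

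Library totals were 15032257 to 15620607 counts with Akkermansia and 15125188 to 16677923 counts with PBS. Cd4 transcripts were abundant in all 6 libraries, at 884 ± 29.6 CPM (counts scaled to library size) in the Akkermansia group and 688 ± 31.9 CPM in the PBS group (SD, n = 3 each). The description of the libraries numbered 2 and 3 in each group names CD5 and CD6 in place of CD4, while the cell type entry of all 6 names CD4. Transcripts of other cells were present as well. Over all genes tested, 7.32% were called higher and 8.28% lower with Akkermansia (edgeR, adjusted p under 0.05). All 16 listed B cell markers were higher with Akkermansia, and their summed level was 1342 to 1526 CPM with Akkermansia against 927 to 949.9 CPM with PBS. Both CD8 T cell markers were higher, summing to 61.3 to 93.4 CPM with Akkermansia against 19.1 to 20.2 CPM with PBS, and so were 8 of 12 natural killer (NK) cell markers, summing to 156 to 167 CPM against 89.4 to 102 CPM. Of the other lists, markers of dendritic cells rose in 3 of 10 tested cases, of macrophages and monocytes in 2 of 10 and of neutrophils in 1 of 7, while those of plasma cells fell in 3 of 9 (Xbp1, Irf4 and Prdm1, which activated T cells also express) and of platelets in 1 of 3. With so few genes in these lists, the counts for macrophages, neutrophils and platelets are not set apart from the shares over all genes. T cell identity genes rose in 6 of 15 cases and fell in 1. In bulk libraries, fewer cells of a type and less RNA per cell cannot be told apart.

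Of the 8 genes, Slamf1 was lower with Akkermansia at the threshold used, and the other 7 did not pass. Slamf1, a self-ligand receptor that signals through SAP, was 0.61 ± 0.12 lower on the log2 scale (SE). Slamf6 and Sh2d1a also had negative estimates, Slamf7, Ly9, Cd48 and Cd2 had positive ones, and Cd84 was near 0. Calls rest on the quasi-likelihood test of edgeR with an adjusted p under 0.05, by which 15.6% of all genes tested were called, 7.32% as higher and 8.28% as lower with Akkermansia. Among the 8 genes, 1 was called lower and 0 were called higher, while 2 higher and 1 lower had an unadjusted p under 0.05. DESeq2 called 1 of the 8 higher, and limma-voom 0. The median log2 fold change of the 8 genes was 0.02, beside -0.01 over all genes tested, and 4 of the 8 estimates lay above 0.

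The promoters of Slamf1 and Slamf7 are shown because these 2 genes of one cluster on chromosome 1 had the largest negative and the largest positive estimate among the 8 genes. Both windows run from 250 bases before to 50 bases after the gene start, 5′ to 3′ on the gene's strand, and come from RefSeq on build GRCm38.p6, which is older than the build GRCm39 named for the deposited tables. The Slamf1 window is chr1:171766882-171767181 on the plus strand, and the Slamf7 window is chr1:171648950-171649249 on the minus strand. Capitals mark every match, on either strand, to 1 of 7 short motifs of factors used by T cells.
Slamf1: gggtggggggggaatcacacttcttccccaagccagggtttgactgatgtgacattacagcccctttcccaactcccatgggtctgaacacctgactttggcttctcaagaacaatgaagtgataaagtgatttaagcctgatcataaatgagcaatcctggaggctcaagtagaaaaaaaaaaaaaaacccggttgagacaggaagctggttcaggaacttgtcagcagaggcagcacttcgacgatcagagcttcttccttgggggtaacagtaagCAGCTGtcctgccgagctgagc
Slamf7: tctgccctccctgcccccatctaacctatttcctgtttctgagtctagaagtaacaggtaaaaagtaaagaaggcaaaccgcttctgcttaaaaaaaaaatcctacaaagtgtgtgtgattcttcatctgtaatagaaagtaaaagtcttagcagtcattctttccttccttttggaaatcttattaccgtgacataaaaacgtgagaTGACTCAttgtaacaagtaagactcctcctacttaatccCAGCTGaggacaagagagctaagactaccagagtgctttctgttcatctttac
Each window held 1 match to the letters CAGCTG, a form of the E-box found in 16.3% of 32851 promoter windows of the same length. Each of the 7 motifs was searched by the letters given here alone. Other forms of the E-box and of the other motifs were neither searched nor marked. Slamf7 also held an AP-1 motif, TGANTCA, found in 7.81% of the windows. Neither window held the letters searched for the other 5 motifs, which does not show that other forms of these motifs are absent. These were the letters TGTGGT, bound by RUNX factors and found in 16.8% of the windows, the letters CTTTGA, bound by TCF and LEF factors and found in 16.0% of them, and the letters AGATAA, bound by GATA factors and found in 11.2% of them. The ETS letters CCGGAA were found in 14.9% of all windows and the STAT letters TTCNNNGAA in 8.30% of them. No 2 marked matches overlapped. A match of letters is a description of the sequence and does not show that a factor binds. Promoter windows were found for 5 of the 8 genes.

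Slamf1 had 37.5, 30.1 and 28.9 CPM in the Akkermansia libraries, against 56.0, 48.6 and 42.4 CPM in the PBS libraries. Every Akkermansia library lay below every PBS library, a separation in this direction that 17.8% of all genes tested shared (34.9% in either direction). Its mean was 32.2 ± 4.64 CPM in Akkermansia libraries and 49.0 ± 6.79 CPM in PBS libraries (SD, n = 3 each), and edgeR gave a log2 fold change of -0.61 with a 95% interval of -0.88 to -0.34 (adjusted p = 0.00675). The call held in all 15 alternatives of tool, scaling, filter, unit and left-out library, with estimates between -0.73 and -0.51 and an adjusted p of at most 0.0427.

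Slamf6, a self-ligand receptor that follicular helper and progenitor-like T cells carry, had 277, 219 and 229 CPM with Akkermansia, against 319.7, 332 and 240.1 CPM with PBS. The groups overlapped because PBS 3 lay below Akkermansia 1. The log2 fold change was -0.30 ± 0.14 (SE, 95% interval -0.61 to 0.01, edgeR adjusted p = 0.179). Without PBS 3 the estimate was -0.43 and the gene was called (edgeR adjusted p = 0.00941). With no filter on low counts the edgeR adjusted p was 0.00306 at a nearly unchanged estimate of -0.29. The gene overlaps the antisense RNA Gm37065, which had 30 to 56 counts against 3286 to 5293 for Slamf6, and the labels do not say whether counting used strand.

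Sh2d1a, the gene of SAP, had 44.9, 33.8 and 43.9 CPM with Akkermansia, against 54.2, 51.7 and 38.2 CPM with PBS. PBS 3 lay below Akkermansia 1 and Akkermansia 3, so the groups overlapped here too. The log2 fold change was -0.23 ± 0.15 (SE, 95% interval -0.56 to 0.10, edgeR adjusted p = 0.336), and no alternative called it, the lowest adjusted p being 0.0505 without PBS 3.

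Slamf7, a receptor best known from NK cells, cytotoxic T cells and plasma cells, had 27.8, 19.9 and 23.1 CPM with Akkermansia, against 19.1, 14.8 and 8.52 CPM with PBS. The groups did not overlap, but the gap between Akkermansia 2 and PBS 1 was small beside the spread within either group. The log2 fold change of 0.74 ± 0.28 (SE) was the largest in size of the 8 and had a 95% interval of 0.07 to 1.40 (edgeR adjusted p = 0.131). The gene was called in 4 of the 15 alternatives, among them DESeq2 (adjusted p = 0.0106), no filter on low counts (3.16e-05) and the fit without PBS 1 (0.0384), whereas without PBS 3 its estimate was 0.47. The fit with no filter had nearly the same estimate as the main test, 0.75, and why its adjusted p was so much lower was not tested. In the same libraries Cd8a, the CD8 coreceptor, was at 33.5, 51.9 and 31.0 CPM with Akkermansia against 8.15, 7.16 and 9.44 CPM with PBS. Ncr1, an NK cell receptor gene of low level, was at 3.04, 3.87 and 2.52 CPM with Akkermansia against 0.604, 0.788 and 0.613 CPM with PBS. Of the 12 NK cell markers, 8 were called higher, and 2 had negative estimates that were not called (Klrb1c at -0.15 and Fcer1g at -0.13). Of 9 tested plasma cell genes, 3 were called lower, with log2 fold changes of -0.37 for Xbp1, -0.28 for Irf4 and -0.59 for Prdm1, and 2 that were not called, Igha and Jchain, had a positive estimate with an unadjusted p under 0.05. The list summed to 718 to 884 CPM with Akkermansia against 325 to 518 CPM with PBS, of which the antibody gene Igha, which did not pass (edgeR adjusted p = 0.0568), made up 461 ± 75.1 CPM in Akkermansia libraries and 112 ± 55.9 CPM in PBS libraries (mean and SD, n = 3 each). The part of these cells in the Slamf7 values was not tested.

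Ly9, a self-ligand receptor of T and B cells, had 211, 228 and 224 CPM with Akkermansia, against 196, 199.5 and 187 CPM with PBS. Every Akkermansia library lay above every PBS library, which held for 2 of the 8 genes (Ly9 and Slamf7) and for 17.1% of all genes tested. The log2 fold change was 0.19 ± 0.07 (SE, 95% interval 0.04 to 0.33, edgeR adjusted p = 0.0783), and no alternative called it. The annotation has Ly9 overlapping Cd244a on the opposite strand, whose 85 to 114 counts stood against 3039 to 3419 for Ly9. Pax5, the B cell identity factor, was at 54.7, 70.8 and 63.1 CPM with Akkermansia and 24.0, 27.7 and 27.3 CPM with PBS in these libraries, and the part of B cells in the Ly9 values was not tested.

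The ligand pair and Cd84 differed least. Cd48, the ligand of CD2, had 104, 99.8 and 99.5 CPM with Akkermansia, against 93.7, 101 and 80.9 CPM with PBS (log2 fold change 0.14 ± 0.08, SE, 95% interval -0.04 to 0.32, edgeR adjusted p = 0.29). Cd2 had 249, 244 and 244 CPM with Akkermansia, against 239, 249.5 and 219 CPM with PBS (0.06 ± 0.07, 95% interval -0.09 to 0.21, edgeR adjusted p = 0.628). Both pairs of groups overlapped, and so did those of Cd84. Cd84, a self-ligand receptor of follicular helper T cells, B cells and platelets, had 174, 162 and 169 CPM with Akkermansia, against 182, 176 and 151 CPM with PBS (-0.01 ± 0.08, 95% interval -0.18 to 0.16, edgeR adjusted p = 0.961).

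**Figure D1:**
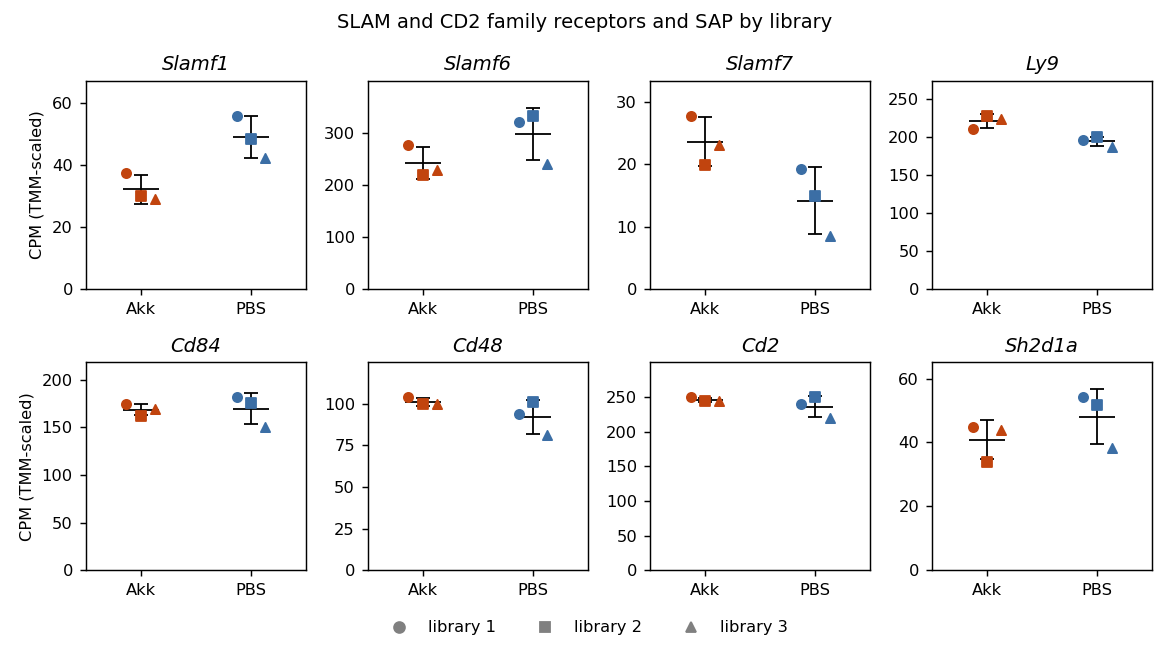
Levels of the 8 genes in CPM scaled by TMM factors, with 1 point per library (Akk, Akkermansia), black lines for the mean and bars for the SD (n = 3 per group). Slamf1 lies at 28.9 to 37.5 CPM with Akkermansia and at 42.4 to 56.0 CPM with PBS, and PBS 3 (triangle) is the lowest PBS library in all 8 panels.

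Libraries within a group differed in the same direction across the 8 genes. PBS 3 had the lowest CPM of the 3 PBS libraries for 8 of 8 genes, whereas it was the lowest for 32.5% of all genes tested. Akkermansia 1 had the highest CPM of the Akkermansia libraries for 7 of 8 genes, Ly9 being the exception, and for 34.2% of all genes tested. PBS 3 thereby lay nearest to the Akkermansia libraries for Slamf1, Slamf6 and Sh2d1a, and farthest from them for Slamf7, Ly9, Cd48 and Cd2. Without PBS 3 the estimate was -0.70 for Slamf1, -0.37 for Sh2d1a, 0.16 for Ly9, 0.06 for Cd48 and 0.01 for Cd2.

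**Figure D2:**
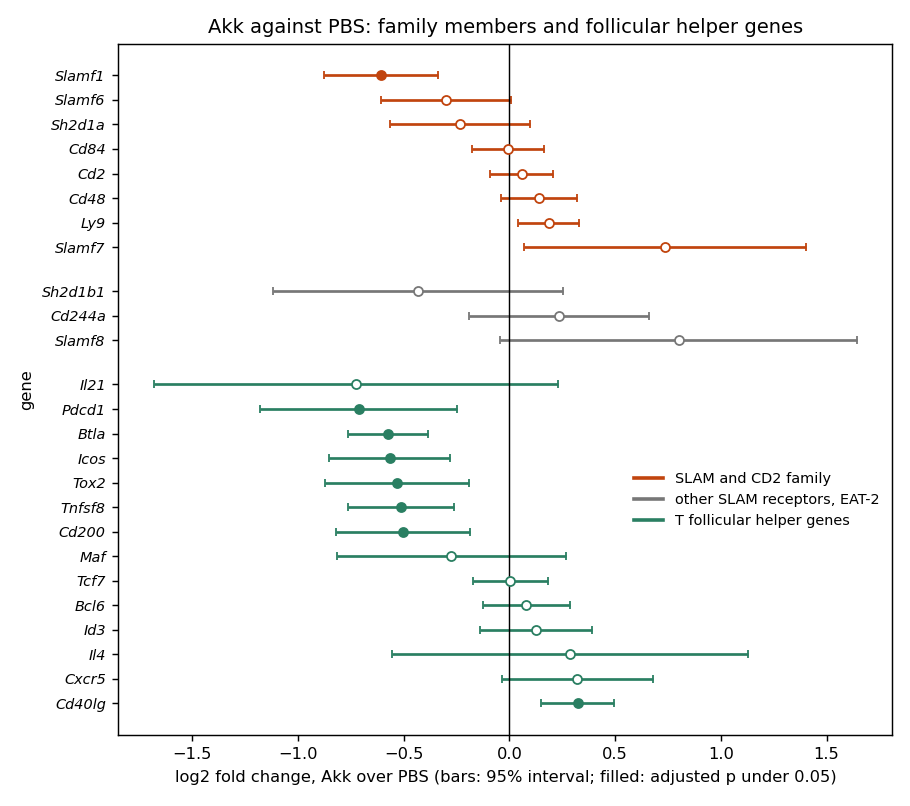
Log2 fold changes, Akkermansia over PBS, with 95% intervals for the 8 genes, for 3 tested relatives and for 14 tested follicular helper genes, with filled points where the adjusted p was under 0.05. Slamf1 at -0.61 is the filled point among the 8, beside 6 falls and 1 rise among the follicular helper genes.

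Per unit of gene length, in FPKM as deposited, Cd2 was the most abundant of the 8 with 141 ± 1.44 FPKM with Akkermansia and 135 ± 9.49 FPKM with PBS (SD, n = 3 each). Cd48 followed with 85.1 ± 1.82 FPKM in Akkermansia libraries and 76.8 ± 8.87 FPKM in PBS libraries. Ly9 came next with 66.9 ± 2.83 FPKM in Akkermansia libraries and 58.4 ± 2.21 FPKM in PBS libraries. In each group the libraries of these 3 genes did not overlap one another. Cd84, with 26.9 ± 0.97 FPKM in Akkermansia libraries and 26.9 ± 2.64 FPKM in PBS libraries, stood above Slamf6 in all 3 Akkermansia libraries, where Slamf6 had 25.5, 20.2 and 21.3 FPKM, but in only 1 of the 3 PBS libraries, where Slamf6 had 29.2, 30.8 and 22.0 FPKM. The FPKM of Slamf6 was computed by the authors over a length of about 10838 bases and that of Cd48 over about 1190 bases, so this order depends on their gene lengths.

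At the low end, the order of Slamf1 and Slamf7 depended on the group. Slamf1 had 6.08, 4.88 and 4.73 FPKM and Slamf7 6.05, 4.34 and 5.08 FPKM with Akkermansia, ranges that overlap. With PBS, Slamf1 had 8.99, 7.92 and 6.83 FPKM, above the 4.13, 3.25 and 1.85 FPKM of Slamf7 in every library. The ratio of Slamf1 to Slamf7 FPKM was 1.00, 1.12 and 0.931 with Akkermansia against 2.18, 2.44 and 3.69 with PBS. Sh2d1a lay above Slamf1 in every library, at 7.43 ± 1.13 FPKM with Akkermansia and 8.68 ± 1.56 FPKM with PBS (SD, n = 3 each). The ratio of Slamf1 to Sh2d1a FPKM was 0.747, 0.796 and 0.589 with Akkermansia against 0.924, 0.841 and 0.993 with PBS.

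**Figure D3:**
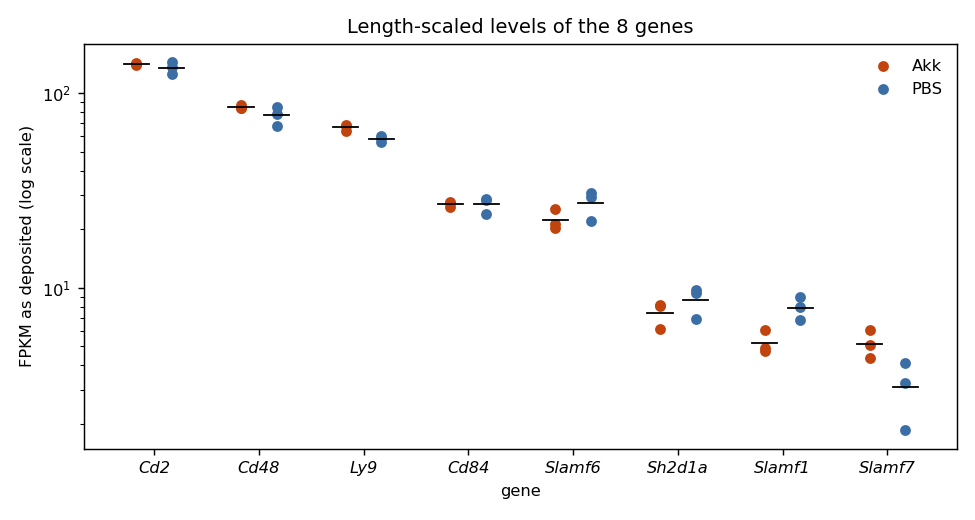
FPKM of the 8 genes on a log axis, with 1 point per library and a line at the mean of each group of 3 (Akk, Akkermansia). Cd2, Cd48 and Ly9 lead in both groups, and Slamf1 and Slamf7 overlap with Akkermansia but not with PBS.

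Slamf1 was also lower relative to each of the other 7 genes. The FPKM ratio of Slamf1 to the other gene was lower in every Akkermansia library than in every PBS library for Slamf6, Slamf7, Ly9, Cd84, Cd48, Cd2 and Sh2d1a alike. The ratio to Slamf6 was 0.238, 0.241 and 0.223 with Akkermansia against 0.308, 0.257 and 0.311 with PBS. Its share of the summed FPKM of the 7 receptors was 1.69%, 1.40% and 1.34% with Akkermansia against 2.62%, 2.20% and 2.25% with PBS. The sum itself was 359, 348 and 352 FPKM with Akkermansia and 343, 359 and 303 FPKM with PBS, so the groups overlapped. These ratios share the Slamf1 values that gave its call and are a description of them.

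Of 5 further genes of the family, 3 were tested and 0 were called in either direction by edgeR, DESeq2 or limma-voom. None of these had an unadjusted p under 0.05 in edgeR. Over all genes tested, edgeR called 15.6%, and with 3 genes a count of 0 is not set apart from that share. Cd244a, the receptor that binds CD48, had 5.69, 7.61 and 6.03 CPM with Akkermansia against 5.13, 5.71 and 5.58 CPM with PBS (edgeR log2 fold change 0.23 ± 0.20, SE, adjusted p = 0.469). Slamf8, a receptor of myeloid cells, had 2.47, 1.67 and 1.32 CPM with Akkermansia against 0.966, 1.31 and 0.858 CPM with PBS (0.80 ± 0.39, edgeR adjusted p = 0.189). Sh2d1b1, the gene of the SAP-like adaptor EAT-2 of NK cells, had 2.72, 2.27 and 1.99 CPM with Akkermansia against 2.54, 4.53 and 2.39 CPM with PBS (-0.43 ± 0.32, edgeR adjusted p = 0.397). Slamf9, with 4 to 8 counts per Akkermansia library and 3 to 14 per PBS library, and Sh2d1b2, with at most 1 count, did not pass the filter.

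By RefSeq gene order, 6 of the 8 genes lie together on chromosome 1 in the order Ly9, Slamf7, Cd48, Slamf1, Cd84 and Slamf6, with Cd244a beyond Ly9. Along this order the log2 fold changes were 0.19 for Ly9, 0.74 for Slamf7, 0.14 for Cd48, -0.61 for Slamf1, -0.01 for Cd84 and -0.30 for Slamf6, with 0.23 for Cd244a. The genes on the Ly9 side of Slamf1 thus had positive estimates, and Slamf1 and the genes beyond it negative ones, of which Slamf1 alone was called and Cd84 changed sign under some alternatives. This split was seen in the data and was not tested. Of the genes lying between them, Tma7-ps (17 to 37 counts per library) and Gm37065 were tested, with log2 fold changes of 0.10 and 0.02 and adjusted p of 0.902 and 0.978. Mir7683, Gm19030 and Gm22950 had 0 to 2 counts and were not tested, and n-THatg1, Gm51686 and Gm52945 were not matched by symbol. Cd2 lies on chromosome 3 and Sh2d1a on the X chromosome.

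Of 20 genes listed for SLAM and SAP signalling, 5 rose and 2 fell, beside 7.32% higher and 8.28% lower over all genes, and their median was 0.01 (log2). The number of falls is near that background, and it was 1 with DESeq2, with no filter on low counts and on log2(FPKM + 1) or log2(FPKM + 0.1), where the FPKM fits gave 3 rises. Ptpn6, the phosphatase SHP-1 that can bind SLAM receptor tails, rose to 308 ± 12.1 CPM with Akkermansia, against 193 ± 5.58 CPM with PBS (SD, n = 3 each, log2 fold change 0.68 ± 0.07, SE, edgeR adjusted p = 6.05e-05). Lck, the kinase of the CD4 coreceptor, rose by 0.33 ± 0.07 (adjusted p = 0.00606), and Csk, the kinase that restrains it, rose by 0.29 ± 0.07 (adjusted p = 0.0125), a call lost without Akkermansia 2 or Akkermansia 3 (adjusted p = 0.0808 and 0.057). Bcl10, an adaptor of NF-kB signalling that acts downstream of Slamf1 and SAP in mice, fell by 0.45 ± 0.08 (edgeR adjusted p = 0.00287), at 71.8, 67.1 and 71.1 CPM with Akkermansia against 98.1, 85.8 and 103 CPM with PBS. Fyn, the kinase that SAP brings in, had 483 ± 18.2 CPM (Akkermansia) and 493 ± 39.7 CPM (PBS) (-0.03 ± 0.08, 95% interval -0.19 to 0.13, adjusted p = 0.847). B cells also express Ptpn6, and the part of the higher B cell markers in its rise was not tested. The rises numbered 2 without Akkermansia 2 or Akkermansia 3 and 3 without PBS 1. The falls numbered 3 without PBS 2 and 1 without any other single library.

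Among 11 genes of the CD2 tail and of neighbouring adhesion and receptor chains, 3 rose and 0 fell. Over all genes tested, 7.32% were called higher and 8.28% lower. Of the 11, 0 had a negative estimate with an unadjusted p under 0.05. DESeq2 and limma-voom likewise called 3 higher and 0 lower, whereas the fits on log2(FPKM + 1) and log2(FPKM + 0.1) called 1 higher and 0 lower. Itgal, the integrin chain of LFA-1, rose to 1062 ± 71.8 CPM with Akkermansia, against 793 ± 20.2 CPM with PBS (SD, n = 3 each, edgeR adjusted p = 0.00222). Cd3e, a chain of the T cell receptor complex, rose by 0.24 ± 0.07 and Wipf1, a partner of the actin regulator WASP, by 0.24 ± 0.07 (log2, SE, edgeR adjusted p = 0.0329 and 0.0426). The count was 1 without any single library other than PBS 2 (3) and PBS 3 (2). Cd2ap, Cd2bp2 and Pstpip1, which bind the CD2 tail, did not pass, with estimates of -0.10, 0.02 and 0.15.

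Genes of follicular helper T cells, whose formation depends on SAP in mice, fell in 6 of 14 tested cases and rose in 1. Over all genes tested, 8.28% were called lower and 7.32% higher. The median of the list was -0.39 beside -0.01 over all genes. This list was chosen with earlier results of these data known. The listed genes Ascl2 and Cxcl13 were not tested. Icos, a costimulatory receptor, had 144, 107 and 113 CPM with Akkermansia against 205, 171 and 162 CPM with PBS (-0.57 ± 0.13, SE, edgeR adjusted p = 0.0181). Btla, an inhibitory receptor, had 157, 158 and 168 CPM with Akkermansia against 272, 212 and 235 CPM with PBS (-0.58 ± 0.09, edgeR adjusted p = 0.00101). In both genes every Akkermansia library lay below every PBS library. Tnfsf8 (CD30 ligand), Cd200, Tox2 and Pdcd1 (PD-1) fell by 0.51, 0.50, 0.53 and 0.71 with adjusted p of 0.0133, 0.0355, 0.0379 and 0.0455, and the groups of Pdcd1 overlapped. Cd40lg, the CD40 ligand that helps B cells, rose by 0.32 ± 0.08 (edgeR adjusted p = 0.017). Bcl6, the regulator of the lineage, its chemokine receptor Cxcr5 and the cytokine Il21 did not pass, with estimates of 0.08 ± 0.10, 0.32 ± 0.16 and -0.73 ± 0.41 (SE). The 6 falls numbered 1 without Akkermansia 2, 2 without Akkermansia 3 or PBS 1, 3 without PBS 2 and 3 on log2(FPKM + 1) or log2(FPKM + 0.1), so the count depends on single libraries. The call of Icos was lost without Akkermansia 2, Akkermansia 3 or PBS 2 (edgeR adjusted p up to 0.0717) and that of Cd40lg without Akkermansia 3 or PBS 1 (up to 0.098). Pdcd1 lost its call without any single library other than PBS 3 (up to 0.163), with limma-voom (0.0981), with library totals (0.054) and in both FPKM fits (up to 0.118). Cd200 lost it without Akkermansia 2, Akkermansia 3, PBS 1 or PBS 2 (up to 0.153) and Tox2 without Akkermansia 2, Akkermansia 3 or PBS 1 (up to 0.159), and both lost it in both FPKM fits (adjusted p up to 0.083 for Cd200 and 0.0922 for Tox2). Tnfsf8 lost it without Akkermansia 2 or PBS 1 (up to 0.0554), while Btla kept it in every alternative. The receptors on this list are also carried by other activated T cells, and the list does not measure a share of follicular helper cells.

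Icos and Tox2 were also the genes whose pattern was most like that of Slamf1. Likeness was the root mean squared difference of centred log2 CPM over the 6 libraries, among 8452 genes with a mean of at least 10 CPM. Icos differed by 0.0575, Tox2, a nuclear factor, by 0.0585 and Ndc80, a kinetochore gene, by 0.064. Ndc80 averaged 8.93 ± 1.44 CPM in Akkermansia libraries and 14.1 ± 1.88 CPM in PBS libraries (SD, n = 3 each). In all 3, as in Slamf1, library 1 was the highest of its group, an order that the choice by likeness favours.

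Of 11 genes listed for NKT and other innate-like T cells, which also need SAP, 0 were called either way by edgeR, DESeq2 or limma-voom. Over all genes tested, edgeR called 15.6%, and with so few listed genes a count of 0 is not set apart from that share. Of the 11 genes, 0 had an unadjusted p under 0.05 in edgeR. Without PBS 1 or without PBS 3, edgeR called 1 of them higher. Zbtb16, the factor that defines NKT cells, had a log2 fold change of 0.28 ± 0.21 (SE, edgeR adjusted p = 0.417). It averaged 7.93 ± 0.177 CPM in Akkermansia libraries and 6.54 ± 1.89 CPM in PBS libraries (SD, n = 3 each).

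**Figure D4:**
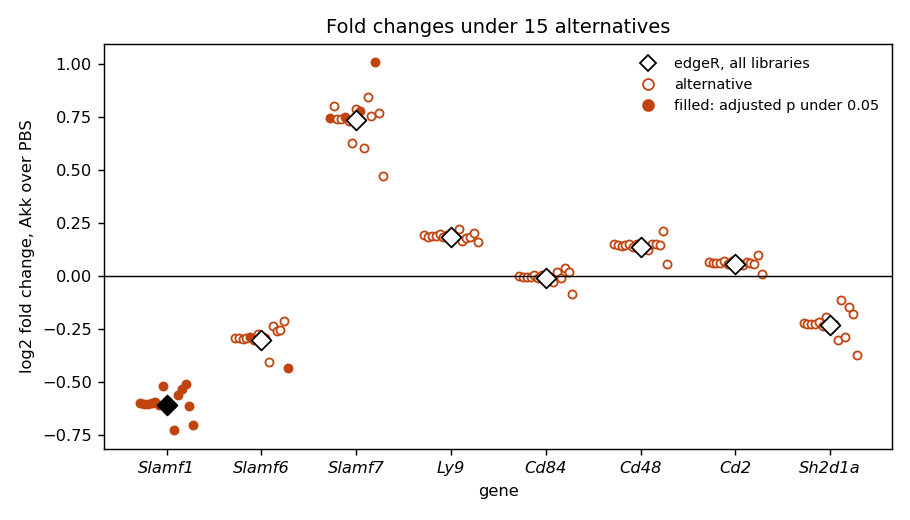
Log2 fold changes of the 8 genes, Akkermansia over PBS, from edgeR on all 6 libraries (diamonds) and under 15 alternatives (circles), filled where the adjusted p was under 0.05. Slamf1 is filled throughout, between -0.73 and -0.51, Slamf6 and Slamf7 are filled under some alternatives, and the other 5 genes are open throughout.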

How the data were processed

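Poly(A)-selected RNA of splenic CD4+ T cells was sequenced, per the labels' protocols. The authors deposited raw counts per gene and FPKM values (counts divided by gene length and library total) with 2 decimals. Per the submitters' processing notes, reads were placed on GRCm39. The sources used here name no aligner, counter, annotation or strand setting. FPKM could be rebuilt from the counts with 1 length per gene and 1 factor per library (0.986 to 1.01) to within 0.517% for the 5248 genes whose libraries all held 500 counts or more.

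Counts were tested with edgeR 4.0.16 (R 4.3.3): filterByExpr (minimum count 10, minimum total 15), TMM scaling, robust quasi-likelihood F test, two-sided, Benjamini-Hochberg adjustment over 15138 genes, threshold 0.05, no covariate. Standard errors and 95% intervals were derived from the F statistic and its degrees of freedom. Levels are CPM with TMM factors, and a floor of 3 counts is 0.181 to 0.2 CPM. P-values measure the spread between these libraries. All 6 carry batch label 1. An exact permutation of 3 against 3 cannot go below 0.1, so none is given. Replicate pairs differed by 4.47 to 19.9 times the sampling variance, so none was counted as a repeat.

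The members and the 15 gene lists were chosen with earlier results of these data known, as was the rule for naming genes. That rule takes all members, their relatives, genes between them on the chromosome, up to 4 called genes per list and the 3 most like patterns. Other genes named were picked with their values known. Counts of called genes are adjusted over all genes tested, and no list was tested as a set. Motifs were chosen with the promoter sequences in view. A consensus of NF-kB was left out because its letters are not printed, and no result is given for it. Overlapping genes come from GENCODE release M21 by identifier. Alternatives were DESeq2 1.42.0, limma-voom (limma 3.58.1), RLE factors, library totals, 2 other filters, a replicate block, limma-trend on log2(FPKM + 1) or log2(FPKM + 0.1), and leaving out single libraries. On simulated counts with 200 changed genes among 15138, edgeR recovered 48% of the genes set to a 1.5-fold difference and 62% at 2-fold. Of its 160 calls, 10.6% were genes left unchanged. The 200 are fewer than the 2361 genes called in the data, so these rates describe the simulated setting alone. Figures were drawn with matplotlib.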

Additional observations from a re-analysis of the deposited data

How the results depend on the processing

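The median of all genes moved by less than 0.02 (log2) under every scaling and tool run. The number of the 8 genes called was 1 in the main test and 2 with DESeq2, 3 with no filter on low counts and 1 to 2 when each library was left out. Of these, called higher were 1 with DESeq2, 1 with no filter and 0 to 1 with a library left out, and called lower were 2 with no filter and 1 to 2 with a library left out. Over all genes, leaving out a library gave 519 to 1287 higher, 623 to 1413 lower and 1142 to 2560 called genes in all. In the pathway lists together, 17 genes were called, against 9 on log2(FPKM + 1), 9 on log2(FPKM + 0.1) and 6 to 17 with a library left out, where fewer samples entered the test. The sign of Cd84 turned with DESeq2 (0.0026), with no filter (0.0068), on log2(FPKM + 1) (0.0056), on log2(FPKM + 0.1) (0.00596) and with Akkermansia 2, PBS 1 or PBS 2 left out. Over the fits without 1 library it ranged between -0.0846 (without PBS 3) and 0.0361 (without PBS 1). The cause of these changes was not tested. Lost or gained calls of single named genes numbered 34 and 6, and 433 values kept direction and call.

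The replicate numbers share no stated source. Deviations of same-numbered libraries correlated at 0.0846, 0.0774 and 0.0303 across 15138 genes, below the 0.1 required in every pair, although each library correlated best with its own number. With the replicate block, 2 of the 8 genes were called, 1 of them higher (Slamf7, adjusted p = 0.0199), and 2538 genes in all. At these depths Slamf9 and Sh2d1b2 were too low to test.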
